A study of Mus musculus with 14 samples.

Results

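The genes described here are the 7 that write, maintain and oxidise cytosine methylation in mouse DNA: Dnmt1, Uhrf1, Dnmt3a, Dnmt3b, Tet1, Tet2 and Tet3. They were chosen by name, without regard to their values. All 7 were among the 27998 genes of each culture table, the 13288 and 13338 genes of the fresh cell tables, and the 27144 genes of the RNA immunoprecipitation (RIP) table. The series holds 14 samples of neural stem cells from the subventricular zone, a region of the adult mouse brain that goes on making neurons. Its stated aim was to compare active with quiescent stem cells and cells lacking Aplp1 with wildtype cells. It was also to find the RNAs bound by CPEB4, a protein that binds mRNA. Wildtype stem cells were grown with BMP4, a signal used to hold them in quiescence, or with EGF, a growth factor, each labelled as 3 days, in 1 single-cell library each. Freshly isolated cells came from wildtype mice and from mice labelled Aplp1 knockout, in 1 single-cell library per genotype, each with a library of 3 antibody tags that mark individual mice. Neurospheres, stem cells grown as floating clusters, gave 8 RIP libraries in 4 groups of 2: the wildtype input RNA, the RNA precipitated from it by IgG or by an antibody to CPEB4, and the RNA that the CPEB4 antibody precipitated from neurospheres labelled CPEB4-/-. The animals are called adult without a stated age, and no label says that the RIP replicates came from separate cultures, so their p-values measure the spread between these samples only.

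The BMP4 library held 887 cells and 17313999 counts, and the EGF library 1410 cells and 33603623 counts. The fresh libraries were far shallower, with 2209 wildtype cells at a median of 364 counts and 1879 knockout-labelled cells at a median of 424. The RIP libraries held 10054346 to 17466296 counts. The culture libraries shared 1 cell barcode and the fresh libraries 13. A list of 10 quiescent stem cell and astrocyte markers summed to 6350 counts per 1000000 (CPM) with BMP4 and to 945 with EGF, and a list of 10 markers of active cells to 384 and 1956. Oligodendrocyte markers summed to 1586 and 1012 CPM with Mog at 0 in both, while 6 of 9 microglial markers, C1qa and Csf1r among them, were at 0 in both cultures. The part of these other markers in the results was not tested. Aplp1 was counted 246 times in the fresh wildtype library and 54 times in the knockout-labelled one.

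DNA methylation at CpG sites is copied after replication by DNMT1, which UHRF1 recruits to newly made, half-methylated DNA, and it is set on unmethylated DNA by DNMT3A and DNMT3B. TET1, TET2 and TET3 oxidise methylated cytosine, a step towards its removal. In the postnatal brain Dnmt3a is the main de novo enzyme, Dnmt3b is known mostly from early embryos, and Tet2 and Tet3 are known for roles in neurogenesis.

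Since Dnmt1 and Uhrf1 turned out to vary with the cell cycle, their promoters are shown first. RefSeq promoter sequences of GRCm38.p6, from 250 bases before to 50 bases after each annotated start, were found for all 7 genes, 12 promoters in all. They were searched on both strands for the 8 letters of E2F-type sites, TTTCCCGC, TTTCGCGC, TTTGCCGC and TTTGGCGC. E2F factors switch genes on at the start of S phase. Of 32851 promoters, 744 held a match (2.26%). Among the 7 genes a match lay in 1 of 3 Dnmt1 promoters, with 2 matches, and in 1 of 2 Uhrf1 promoters. The other 5 genes had none in these windows, which says nothing of sites elsewhere. The 30-base windows are shown 5′ to 3′ on the strand of the gene with the matched letters in capitals. The first lies 219 bases before a Dnmt1 start (chr9:20952824-20952853, minus strand, the match being read on the opposite strand), the next from 33 bases after that start (chr9:20952574-20952603, minus strand), and the last 185 bases before a Uhrf1 start (chr17:56304117-56304146, plus strand).
Dnmt1 upstream: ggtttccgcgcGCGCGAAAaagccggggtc
Dnmt1 downstream: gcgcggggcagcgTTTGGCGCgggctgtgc
Uhrf1 upstream: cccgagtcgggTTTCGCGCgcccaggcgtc
All 3 windows lie inside the RefSeq spans of their genes, since each gene has another start further upstream. Those spans are chr9:20907206-20959888 for Dnmt1 and chr17:56303337-56323486 for Uhrf1. Tet2 (chr3:133463677-133545136) had the promoter richest in CpG of the 12, with 1.17 times the CpG count its base composition predicts (the 99.2nd percentile of all promoters, whose median ratio was 0.384). The Dnmt1 and Uhrf1 promoters with matches were also rich in CpG, at 0.910 and 0.959 (88.1st and 91.6th percentiles), and the searched letters themselves hold CpG. Dnmt3a promoters at 0.964 and 1.06 held no match. The share of matches among promoters of like CpG content was not taken. Any part of these matches in the cell cycle pattern was not tested. Dnmt3a spans chr12:3801559-3914443 and overlaps Gm31623 and Dnmt3aos, an antisense gene. Dnmt1 overlaps Mir7081, Tet1 overlaps Gm51805, and Tet3 overlaps Mir6374 and B230319C09Rik. The sources used here do not say whether counting used strand, so reads of a member and of a gene overlapping it cannot be told apart.

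The first comparison set the BMP4 culture against the EGF culture. The maintenance pair stood far lower with BMP4, Tet2 and Dnmt3a stood higher, and Tet1 and Tet3 stood lower. Each culture was 1 library, so there is no test. Values are CPM of the library with 95% binomial intervals on the ratios, which cover counting error only. Uhrf1 gave 5.08 CPM with BMP4 (88 counts) and 67.1 with EGF (2254 counts), 13.2-fold higher with EGF (interval 10.7 to 16.5). Dnmt1 gave 11.1 CPM with BMP4 (193 counts) and 43.8 with EGF (1473 counts), a ratio of 3.93 (3.38 to 4.59). Both genes of the copying step were thus lower in the quiescence culture, and the gap was wider for Uhrf1, the recruiter, than for Dnmt1, the enzyme.

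The de novo enzymes went opposite ways. Dnmt3a gave 81.3 CPM with BMP4 (1407 counts) and 47.9 with EGF (1608 counts), 1.70-fold higher with BMP4 (1.58 to 1.83). Dnmt3b was scarce, with 14 and 72 counts, or 0.809 and 2.14 CPM, and 2.65-fold higher with EGF (1.48 to 5.09). Dnmt3l, the catalytically inactive partner of the de novo enzymes, was at 0 counts in both cultures.

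The Tet genes also divided. Tet2 gave 27.8 CPM with BMP4 (481 counts) and 9.34 with EGF (314 counts), 2.97-fold higher with BMP4 (2.57 to 3.44). Tet1 gave 16.1 and 25.8 CPM and Tet3 20.4 and 33.2 CPM, which made them 1.60-fold (1.40 to 1.84) and 1.63-fold (1.44 to 1.84) higher with EGF. Past a 2-fold mark, 1 of the 7 genes was higher with BMP4 (Tet2) and 3 were lower (Uhrf1, Dnmt1 and Dnmt3b). Of the 14502 genes with 10 or more counts, 23.1% were higher by that mark and 15.9% lower, and the median log2 ratio of all these genes was 0.15. TMM scaling lowered every BMP4 over EGF log2 ratio by 0.14 and left each of the 7 directions as given.

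The cultures differed in how many cells were in cycle, so each cell was thinned to 4500 counts and classed by its counts over 29 S phase and 29 G2/M genes, none of them among the 7. Cells with 5 or more such counts were called cycling and cells with 0 to 2 non-cycling. In the BMP4 culture 764 cells (86.1%) were non-cycling and 54 cycling (6.09%). In the EGF culture 207 (14.7%) were non-cycling and 1058 of 1410 cycling. The classes are ranges of a score and not cell types: 60 BMP4 cells had 3 list counts, 9 had 4 and 7 had 5, against 77, 68 and 47 EGF cells.

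Within either culture, Uhrf1 and Dnmt1 were the members that stood higher in cycling cells, and the other well-counted members stayed near a ratio of 1. In the BMP4 culture Uhrf1 rested on 25 counts in non-cycling and 57 in cycling cells, or 1.71 and 42.5 CPM, a ratio of 24.8 (15.3 to 41.5). In the EGF culture it gave 9.28 and 82.2 CPM, a ratio of 8.85 (6.50 to 12.4), which came to 3.94 when cells were classed by scanpy's phase calls. Dnmt1 gave 8.43 and 41.0 CPM in the BMP4 culture (ratio 4.87, 3.48 to 6.75, and 3.10 with cycling set at 3 or more list counts and non-cycling at 0 or 1) and 13.6 and 51.8 CPM in the EGF culture (ratio 3.81, 2.95 to 5.03). The 54 cycling cells of the BMP4 culture thus held far more of both transcripts than their non-cycling neighbours.

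Dnmt3a and the 3 Tet genes had cycling over non-cycling ratios from 0.927 (Tet1) to 1.06 (Dnmt3a) in the BMP4 culture and from 0.975 (Tet3) to 1.14 (Tet1) in the EGF culture, and each of these 8 intervals included 1. The Dnmt3a interval ran from 0.865 to 1.28 in the BMP4 culture and from 0.909 to 1.23 in the EGF culture, so a 2-fold difference lies outside both. Dnmt3b was 2.09-fold higher in cycling EGF cells, on 62 and 5 counts (0.848 to 6.66), and had 1 and 13 counts in the BMP4 classes. Past 2-fold, 2 of the 7 genes were higher in cycling cells of the BMP4 culture, where 8.96% of 12984 genes were higher and 7.00% lower. In the EGF culture 3 of 7 were higher, against 9.66% of 13400 genes, with 4.43% lower.

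Among cycling cells, those with more S than G2/M counts were called S-high and the rest G2/M-high. Uhrf1 in the EGF culture gave 126 CPM in S-high and 61.2 in G2/M-high cells, a ratio of 2.05 (1.88 to 2.24). Dnmt1 gave 61.3 and 47.3 CPM, a ratio of 1.30 (1.16 to 1.45). Dnmt3a also stood slightly higher in S-high cells (1.21, 1.08 to 1.36), while Tet3 stood slightly lower (0.827, 0.710 to 0.961). In the BMP4 culture, where the classes held 22 and 32 cells, Uhrf1 gave 55.7 and 31.5 CPM (ratio 1.77, 1.01 to 3.14) and Dnmt1 42.6 and 39.8 CPM (1.07, 0.606 to 1.88). Dnmt3a gave 110 and 65.8 CPM there, on 67 and 48 counts (1.67, 1.13 to 2.47). Uhrf1 and Dnmt3a thus had higher CPM in S-high cells of both libraries. With BMP4 this rests on 22 and 32 cells, and the intervals leave out the spread between cells. Dnmt1 had higher CPM in S-high cells of the EGF culture, its difference with BMP4 not being detectable at this depth.

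**Figure D1:**
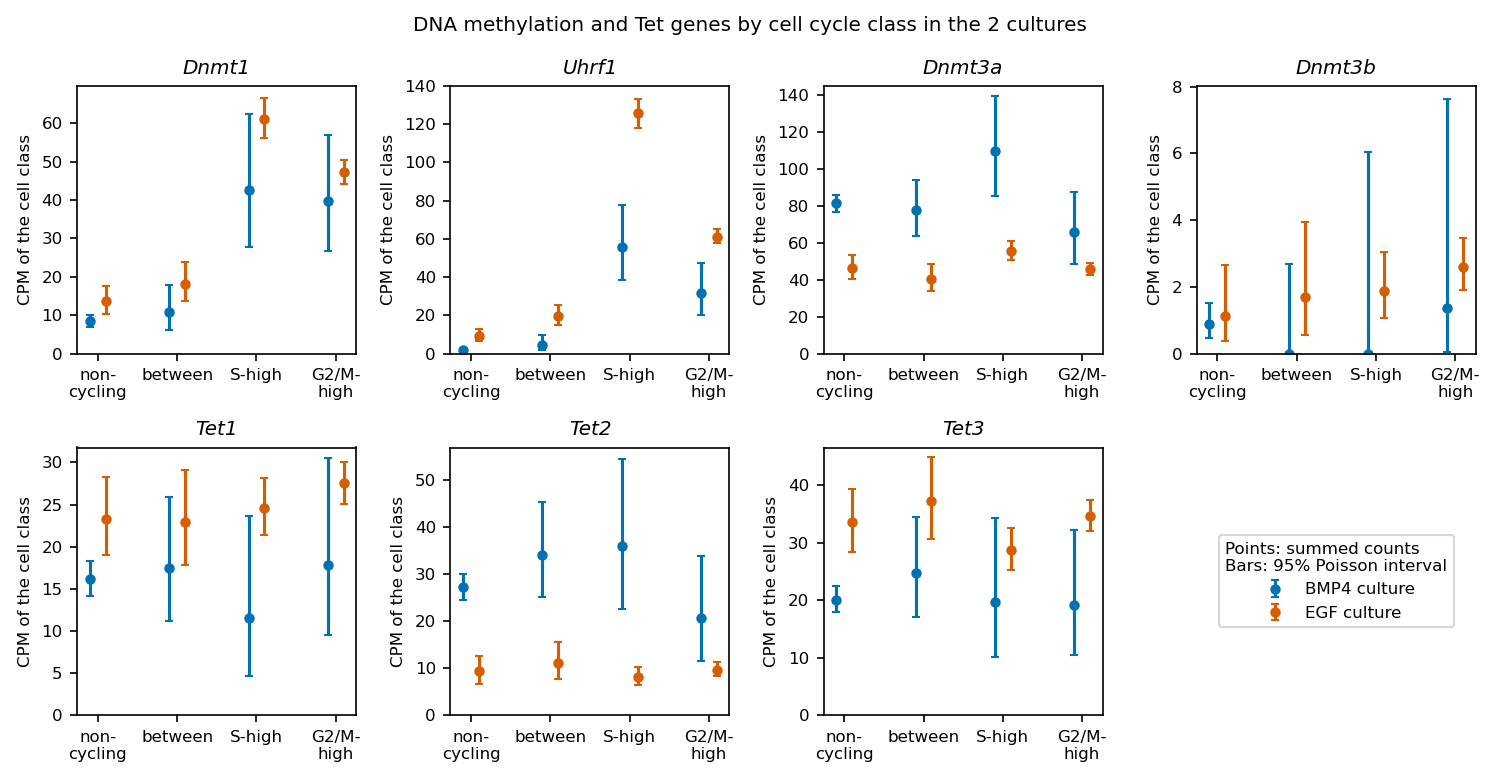
CPM of each gene (y axis) in the 4 cell cycle classes (x axis) of the BMP4 culture (blue) and the EGF culture (orange); points are summed counts of the class and bars 95% Poisson intervals. Uhrf1 climbs from 9.28 CPM in non-cycling to 126 in S-high EGF cells, while Tet2 lies above the EGF points in every BMP4 class and Dnmt3a does too.

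The BMP4 over EGF difference was then taken within non-cycling and within cycling cells. The classes were not matched on list counts: of the non-cycling cells, 324, 284 and 156 had 0, 1 and 2 list counts with BMP4, and 42, 79 and 86 with EGF. The part of this in the values was not tested. Tet2 differed by a like factor in both: 27.2 against 9.28 CPM in non-cycling cells (2.93-fold higher with BMP4, 2.12 to 4.15) and 27.6 against 9.15 CPM in cycling cells (3.02-fold, 2.07 to 4.28). Dnmt3a also differed alike, by 1.75-fold in non-cycling cells (1.51 to 2.04) and 1.75-fold in cycling cells (1.44 to 2.12). The higher levels of both genes with BMP4 were therefore as large within a class as over all cells.

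Tet3 was at a BMP4 over EGF ratio of 0.599 in non-cycling (0.490 to 0.735) and 0.594 in cycling cells (0.386 to 0.876), close to its ratio over all cells. Tet1 was at 0.691 (0.545 to 0.879) and 0.562 (0.341 to 0.874). The maintenance genes behaved otherwise, since their gap narrowed. Dnmt1 went from 0.254 over all cells to 0.620 in non-cycling (0.452 to 0.860) and 0.792 in cycling cells, where the interval of 0.594 to 1.04 included 1. Uhrf1 went from 0.0758 to 0.185 (0.108 to 0.311) and 0.518 (0.391 to 0.673), so it stayed lower with BMP4 in both classes. In non-cycling cells 1 member was 2-fold higher and 1 was 2-fold lower, against 22.9% and 10.5% of 13253 genes.

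**Figure D2:**
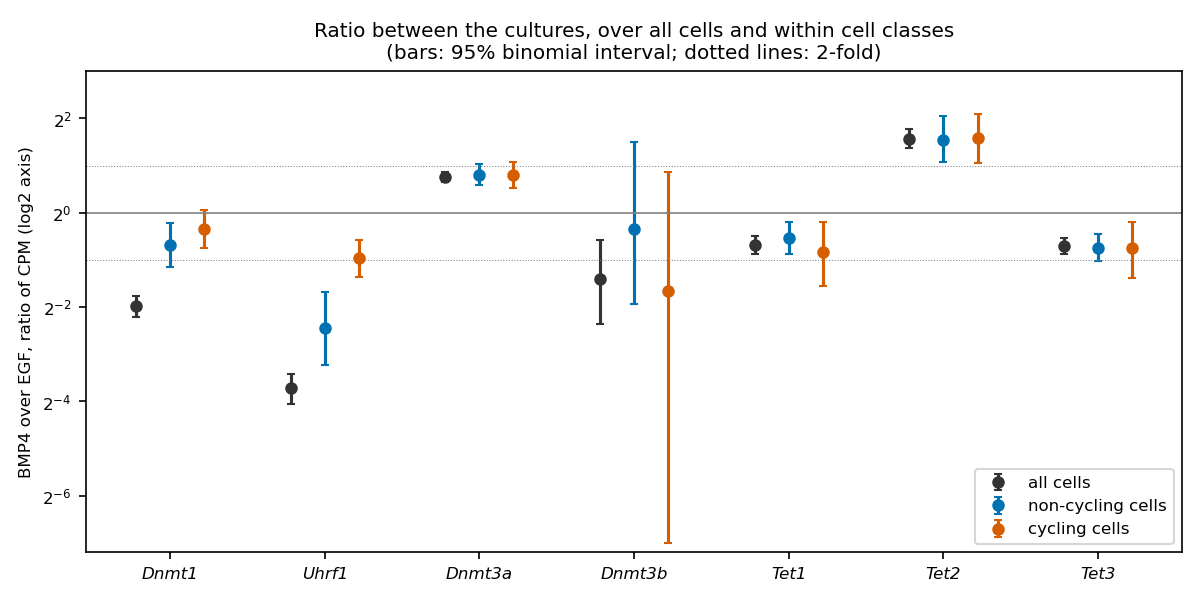
Ratio of CPM, BMP4 over EGF (log2 y axis), for the 7 genes over all cells (black), non-cycling cells (blue) and cycling cells (orange), with 95% binomial intervals. The 3 points coincide for Dnmt3a, Tet2 and Tet3, while those of Uhrf1 run from 0.0758 over all cells to 0.518 in cycling cells.

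The share of cells with a count was compared at matched depth. With every cell thinned to 4500 counts, Uhrf1 was seen in 1.47% of BMP4 and 22.5% of EGF cells, and Dnmt1 in 3.38% and 17.1%. Tet2 was seen in 11.7% of BMP4 cells (interval 9.68 to 14.0) and 3.33% of EGF cells (2.46 to 4.41). Dnmt3a was seen in 28.2% and 19.6%, Tet1 in 7.22% and 10.6%, and Tet3 in 7.10% and 13.8%. Each gene was thus seen more often in the culture where its level was higher. Before thinning the shares for Tet2 were 39.7% and 19.1%, at median depths of 17355 and 22866.5 counts. No cell type that should lack these genes was present as a measure of free RNA, and doublets were not removed.

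The wider pathway was followed through 6 lists. Of 8 genes of replication-coupled maintenance, none was 2-fold higher with BMP4 and 5 were lower. These were Cdca7 and Hells, which remodel chromatin for methylation (9.80-fold and 8.90-fold higher with EGF), Lig1, the ligase of replication (7.60-fold), Cdca7l (6.57-fold) and Pcna, the sliding clamp (3.21-fold). Their median log2 ratio was -2.19, beside 0.15 for all genes. Of 11 methyl donor genes 4 were lower with BMP4, Shmt1 (10.9-fold), Tyms (6.70-fold) and Shmt2 (2.73-fold) among them, and none higher. Tyms is known for thymidine synthesis rather than for supplying methyl groups to DNA.

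Removal genes divided. Of 12 with enough counts, Gadd45b (18.1-fold) and Gadd45g (5.04-fold), stress-response genes that have been linked to demethylation, were higher with BMP4. Lower were Neil3 (9.18-fold), a DNA glycosylase, Parp1 (2.38-fold), Xrcc1 and Apex1. Among 7 partners of the Tet enzymes, Cxxc5, a CpG-binding protein and a known BMP target, was 4.75-fold higher with BMP4 and D2hgdh 2.44-fold higher. Of 8 methyl-CpG readers only Zbtb4 passed the mark (6.48-fold higher with BMP4), and of 7 partners of de novo methylation none did. Within cycling against non-cycling cells, 6 of the 8 maintenance genes were higher past 2-fold in the BMP4 culture and 5 of 8 in the EGF culture, as were 4 and 3 of the 11 methyl donor genes, beside 8.96% and 9.66% of all genes. Hells (21.8-fold and 5.46-fold) and Lig1 (15.3-fold and 6.96-fold) led the maintenance list after the BMP4 and EGF cells in turn.

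Across the 8 cell sets, 4 cell cycle classes in each of 2 cultures, Dnmt1 and Uhrf1 had a Pearson correlation of 0.976. Dnmt3a and Tet2 correlated at 0.894, and Dnmt3a and Tet1 at -0.931. Of 7765 genes with 500 or more counts, those most like Dnmt1 were Atad2, Nasp and Cenps (0.994, 0.994 and 0.992), and those most like Uhrf1 were Gins2, Chaf1a and Tyms (0.993, 0.988 and 0.988), of which Gins2 was used to make the classes. Among those most like Tet2 were Zmiz1 and Cyfip1 (0.993 and 0.993), and those most like Dnmt3a were Tspan14, Limk1 and Samd4. Tet1 was most like Tbrg4, Stoml2 and Mpdu1, and Tet3 most like Rab26os, Stc1 and Nkx2-2. No likeness is given for Dnmt3b, which had 0, 0 and 1 counts in 3 of the BMP4 sets. The 8 sets come from only 2 libraries and share their depth, so these values describe the pattern and carry no test.

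In freshly isolated cells, Uhrf1 and Dnmt1 stood far higher in active cells, while Tet2 and Dnmt3a stood higher in quiescent ones. Cells were clustered without the 7 genes, and clusters named by markers gave 1971 cells like quiescent stem cells or astrocytes, 620 like active stem cells or transit amplifying cells, 524 neuroblast-like, 89 neuron-like, 72 microglia-like and 38 endothelial-like cells, with 774 left unnamed. Stem cells and astrocytes share their markers, so the quiescent class may hold both. Each class and library was given as CPM of summed counts with Poisson intervals and no test. Counts in 1 cell reached 14 for Dnmt3a. The sources used here do not say whether a fresh count is a read or a molecule, so these intervals may be too narrow.

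Uhrf1 had 1 count in the quiescent class and 224 in the active class, or 1.30 and 316 CPM. The ratio was 242, with an interval of 43.0 to 9597 set by the single count, and came to 69.7 and 56.6 at clustering resolutions of 0.5 and 2. Dnmt1 had 2 and 56 counts, or 2.61 and 78.9 CPM (ratio 30.2, 7.99 to 256). Both libraries showed it, with 80 Uhrf1 counts in active cells of the wildtype library and 144 in those of the knockout-labelled library against 0 and 1 in quiescent cells. In cells thinned to 200 counts, Uhrf1 was seen in 27 of 610 active cells (4.43%) and in 0 of 1673 quiescent cells, which allows a share of up to 0.179% of cells with a count at this depth and sets no limit on cells that express the gene. The 72 microglia-like cells, with a median of 359 counts, had 0 counts of both genes, and neuron-like cells had 0 of Dnmt1 and 2 of Uhrf1. With 3 counts as the floor, a 0 lies under 76.4 CPM in microglia-like and 35.1 CPM in neuron-like cells. Neuroblast-like cells lay between active and quiescent cells, at 114 CPM of Uhrf1 and 19.0 of Dnmt1. The 0s of Dnmt1 therefore do not place the microglia-like and neuron-like classes below neuroblast-like cells. Among active, neuroblast-like and quiescent cells, summed S and G2/M list counts moved with this order. They came to 5984 and 7535 CPM in active cells of the wildtype and knockout-labelled libraries. Neuroblast-like cells had 2801 and 3974, and quiescent cells 419 and 390. Mki67, Top2a, Mcm2, Cdk1 and Rrm2 of these lists were also markers that named the active class. The unnamed class broke the order in the wildtype library, with list counts at 3014 CPM but Uhrf1 at 344, against 282 in active cells. In the knockout-labelled library its Uhrf1 level was 222 CPM, against 338 in active cells.

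Tet2 was 3.84-fold higher in quiescent than in active cells (3.06 to 4.85), at 519 and 135 CPM on 398 and 96 counts. The wildtype library gave 527 and 144 CPM and the knockout-labelled library 508 and 129, so the 2 libraries did not overlap between classes. Ordered by level over both libraries, quiescent cells (519, interval 470 to 573) were followed by neuron-like (374, 256 to 529), neuroblast-like (291, 234 to 357), unnamed (236, 193 to 287) and active cells (135, 110 to 165). Intervals of neighbours overlapped except between unnamed and active cells. Microglia-like cells had 7 counts, too few to place, and in neuron-like cells the libraries differed, at 196 CPM in the wildtype and 450 in the knockout-labelled one. After thinning, Tet2 was seen in 6.52% of 1673 quiescent cells (5.38 to 7.81) and 2.95% of 610 active cells (1.76 to 4.62). Before thinning the shares were 11.8% and 10.5%, at median depths of 314 and 908.5 counts. In the neuron-like class the thinned share was 1 of 81 cells, against the order of the CPM values, so its place in the order is not read.

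Dnmt3a, the de novo enzyme, gave 299 CPM in quiescent and 135 in active cells, 2.21-fold higher in quiescent cells (1.73 to 2.83). The neuron-like class had the highest Dnmt3a level, 655 CPM on 56 counts in 22 cells, but the libraries differed there, with 1176 CPM in 31 wildtype and 434 in 58 knockout-labelled cells. Thinned shares followed the levels, with 13.6% of neuron-like cells (6.98 to 23.0), 4.72% of quiescent cells and 1.64% of active cells. Restricting the comparison to cells with 200 or more genes brought the active over quiescent ratio of Dnmt3a from 0.453 to 0.626, within 2-fold.

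Tet1 and Tet3 did not differ detectably between the classes at this depth. Tet1 gave 61.3 CPM in quiescent and 90.2 in active cells (active over quiescent 1.47, 0.994 to 2.19), and Tet3 54.8 and 76.1 CPM (1.39, 0.911 to 2.13). The direction of Tet3 turned with coarser clustering (0.939, at resolution 0.5) and in cells with 200 or more genes (0.833). Dnmt3b had 0 counts in quiescent and 6 in active cells, too few for a fold. Among genes with 10 or more counts, 2 members (Uhrf1 and Dnmt1) were 2-fold higher in active cells and 2 (Tet2 and Dnmt3a) lower, where 25.4% of 9187 genes were higher and 27.7% lower.

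**Figure D3:**
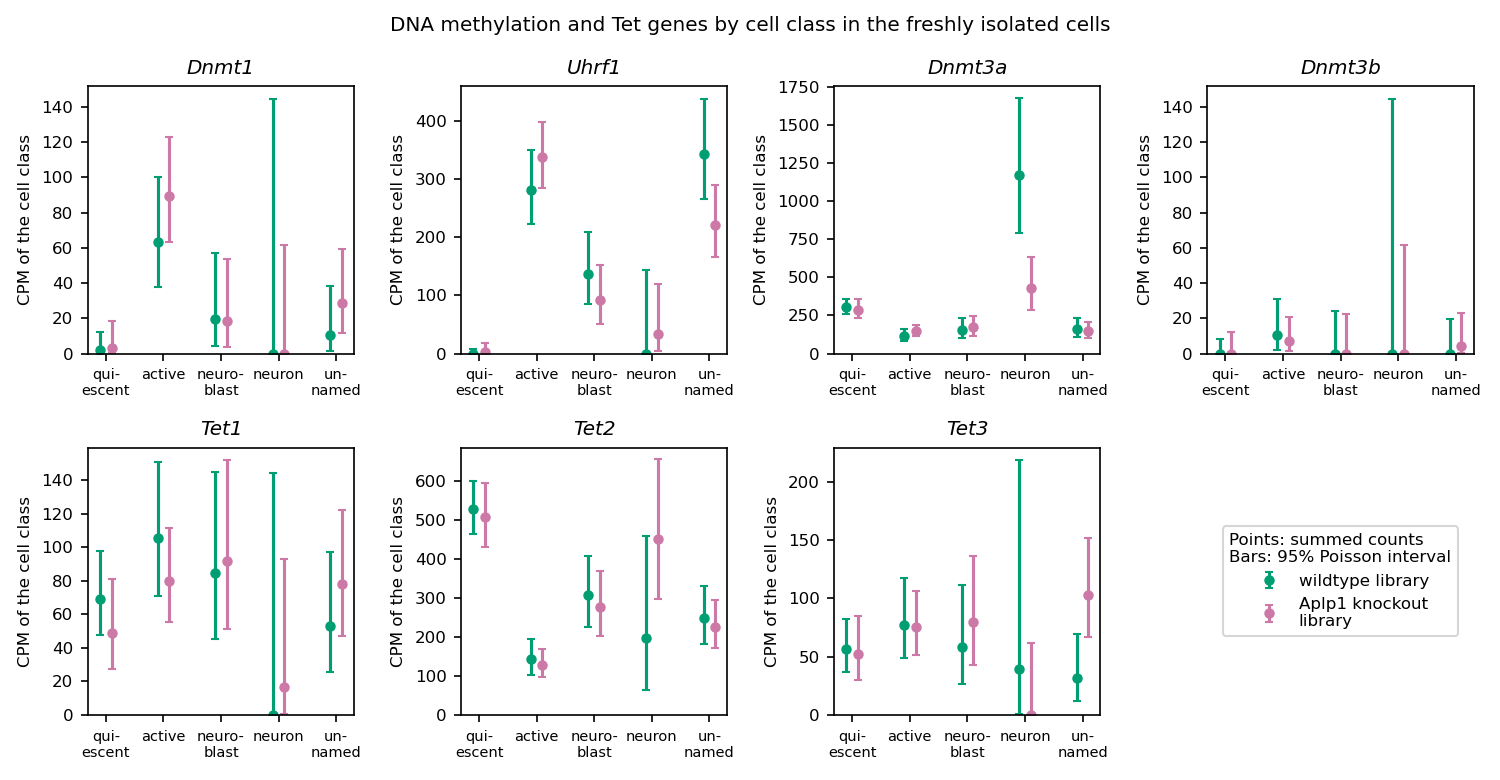
CPM of each gene (y axis) in 5 cell classes (x axis) of the fresh wildtype library (green) and the library labelled Aplp1 knockout (pink); points are summed counts and bars 95% Poisson intervals. Tet2 is highest in quiescent cells of both libraries (527 and 508 CPM), and Uhrf1 is at or near 0 there while it stands at 282 and 338 CPM in active cells.

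The next question was whether loss of Aplp1 goes with a change in these genes. Over whole libraries the knockout-labelled over wildtype ratios of CPM were 0.805 for Tet2 (0.694 to 0.933), 0.853 for Dnmt3a (0.713 to 1.02), 1.20 for Uhrf1 (0.977 to 1.48) and 1.88 for Dnmt1 (1.13 to 3.21), and quiescent cells made up 55.6% of the wildtype and 39.5% of the knockout-labelled library. Genotype and library cannot be told apart, and within quiescent cells Tet2 gave 527 and 508 CPM. The tags allowed a test over 3 wildtype and 3 knockout-labelled mice. Tet2 gave 479, 395 and 535 CPM in the wildtype mice and 280, 121 and 203 in the knockout-labelled mice, that is 470 ± 70.4 against 201 ± 79.8 (SD, n = 3 each). The groups did not overlap, as was the case for 4.87% of the 1109 genes tested in that direction and 5.05% in the other. The difference did not pass the test (log2 fold change -1.17, SE 0.45, edgeR adjusted p = 0.813). The lack of overlap depended on the tag minimum. It held at a minimum of 3 tag counts. At 20 the mice overlapped, with 719, 208 and 284 CPM of Tet2 in the wildtype and 98.4, 111 and 283 in the knockout-labelled mice.

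Dnmt3a gave 235 ± 23.3 and 191 ± 57.5 CPM over the mice (log2 fold change -0.24, SE 0.50, edgeR adjusted p = 1.00), and the mice overlapped. The counts of the other 5 members were too low for the filter. Over all genes edgeR made 0 calls in either direction, with 61 genes at an unadjusted p under 0.05, and DESeq2 made 1. Tagged cells were few, with 82, 142 and 239 cells in the wildtype mice, of which 49, 92 and 175 were quiescent, and 116, 157 and 133 in the knockout-labelled mice, of which 73, 92 and 69 were. In the mouse marked by the second tag of the knockout-labelled library 7 Aplp1 counts were found, and in the other 2 mice 0. Those 7 counts came to 94.0 CPM, beside 101, 228 and 218 CPM of Aplp1 in the wildtype mice. The mouse was kept in the test as knockout-labelled.

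The RIP libraries were read next, for whether CPEB4 precipitates hold mRNAs of these genes. Cpeb4 itself was not lower under the knockout label. It stood at 81.2 and 225 CPM in the wildtype CPEB4 precipitates and at 231 and 250 in those labelled knockout. The latter are called knockout-labelled throughout. Cpeb4 stood at 16.2 and 14.6 CPM in the inputs and at 55.6 and 121 in the IgG precipitates. No input of the knockout-labelled neurospheres was among the libraries, so these values do not settle whether the label is right. CPM values here are scaled by TMM. The precipitates were dominated by few genes, the top 10 taking 32.0 to 64.2% of their counts against 3.92 and 4.50% in the inputs, with Cmss1 leading each precipitate, and TMM factors ran from 0.43 to 2.86. The second knockout-labelled library correlated best with an IgG library (0.956). In RNA from whole cultures, fewer cells of a type and less RNA per cell cannot be told apart. Marker lists of other cells moved with precipitation: 7 oligodendrocyte markers summed to 3707 to 4298 CPM in the inputs and 83.5 to 122 in the precipitates, and 7 microglial markers to 107 to 128 and 352 to 1211. Active cell markers summed to 1558 to 1665 and 418 to 1363 CPM. Their part in the results below was not tested.

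No member was called between the wildtype CPEB4 precipitate and the IgG precipitate, the control for RNA that binds without a specific antibody. Tet2 gave 47.8 and 43.0 CPM in the CPEB4 precipitates and 22.6 and 37.1 with IgG (log2 fold change 0.60, SE 0.56). Tet3 gave 86.4 and 110 against 80.2 and 77.2 (0.32, SE 0.36). Both were higher without overlap between libraries, as was Dnmt3a, at 71.3 and 74.4 against 61.4 and 67.4 (0.18, SE 0.34). Tet1 gave 33.9 and 39.4 against 27.0 and 38.6 CPM and overlapped, as did Dnmt3b.

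Uhrf1 gave 16.4 and 20.7 CPM in the CPEB4 precipitates and 40.2 and 25.5 with IgG (log2 fold change -0.82, SE 0.42), and Dnmt1 57.3 and 57.5 against 71.2 and 63.9 (-0.23, SE 0.34). These 2 were lower without overlap. Over all 17062 genes tested, 25.0% were higher without overlap and 27.9% lower, so 3 and 2 of the 7 genes lie near the background. The edgeR adjusted p of the members ran from 0.601 to 0.951. The test called 0 genes of any kind in either direction, with 1360 at an unadjusted p under 0.05, while DESeq2 called 4 higher and 6 lower, none a member.

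Against input, both kinds of precipitate held relatively more Tet and Dnmt3a mRNA and CPEB4 precipitates less Uhrf1. These comparisons share the input libraries. Tet1 gave 4.71 and 6.37 CPM in the inputs and 27.0 to 39.4 in all 6 precipitates, the CPEB4 precipitates standing 6.62-fold above input (log2 fold change 2.73, SE 0.38, edgeR adjusted p = 0.000765) and IgG 5.92-fold (2.57, SE 0.38, edgeR adjusted p = 0.00171). Tet3 gave 23.6 and 28.0 CPM in the inputs and 73.7 to 110 in the precipitates, with log2 fold changes of 1.93 for CPEB4 (edgeR adjusted p = 0.00254) and 1.61 for IgG (edgeR adjusted p = 0.0117). Tet2 gave 13.7 and 4.91 CPM in inputs that differed 2.79-fold between themselves, and 22.6 to 59.0 in the precipitates (2.29, edgeR adjusted p = 0.00844, and 1.68, edgeR adjusted p = 0.0461). For each of the 3 genes all 6 precipitates lay above both inputs. The same held for Dnmt3a and for Dnmt1, which was called in neither comparison. The share of all genes with this pattern over the 6 precipitates was not counted.

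Dnmt3a gave 27.9 and 28.6 CPM in the inputs, 61.4 and 67.4 with IgG and 71.3 and 74.4 with CPEB4 (log2 fold changes 1.19, edgeR adjusted p = 0.0259, and 1.37, edgeR adjusted p = 0.00786). Uhrf1 gave 45.8 and 50.3 CPM in the inputs and was lower in the CPEB4 precipitates (-1.37, SE 0.42, edgeR adjusted p = 0.0185), while its IgG difference (-0.55) was not called. Dnmt1, at 47.8 and 47.4 CPM in the inputs, and Dnmt3b, at 2.08 and 1.14, were called in neither. In all, 4 of 7 members were higher and 1 lower with CPEB4, where 27.4% of genes were higher and 27.6% lower. With IgG 4 were higher and 0 lower, against 18.2% and 15.6%. Without overlap between libraries, 6 members were above input with CPEB4 and 1 below, where 40.2% and 43.2% of genes were. With IgG 5 were above and 1 below, where 34.8% and 41.3% were.

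The sign of several of these differences depended on the scaling, so they are also given relative to the median gene. With total counts as the only scaling the median gene stood at -1.57 (log2) for CPEB4 over input and -2.62 for IgG over input, in place of -0.09 and -0.13. Dnmt3a then turned to -0.11 and -1.31, and for IgG over input Tet2 and Tet3 turned to -0.79 and -0.90. No member was called higher in either comparison. A change of scaling shifts every gene by nearly the same amount, and taking off the median removes that shift. Values relative to the median gene were therefore bound to hardly move and are no check on the calls. With CPEB4 Tet1 was at 2.82 by either scaling, Tet2 at 2.38 and 2.36 and Tet3 at 2.02 and 2.01. Dnmt3a was at 1.46 and 1.45 and Uhrf1 at -1.28 and -1.29. Without input replicate 2 the call of Tet2 with CPEB4 was lost (edgeR adjusted p = 0.0719), and Dnmt3a and Uhrf1 lost theirs whichever library was left out. For IgG only Tet1 kept its call in each such fit.

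**Figure D4:**
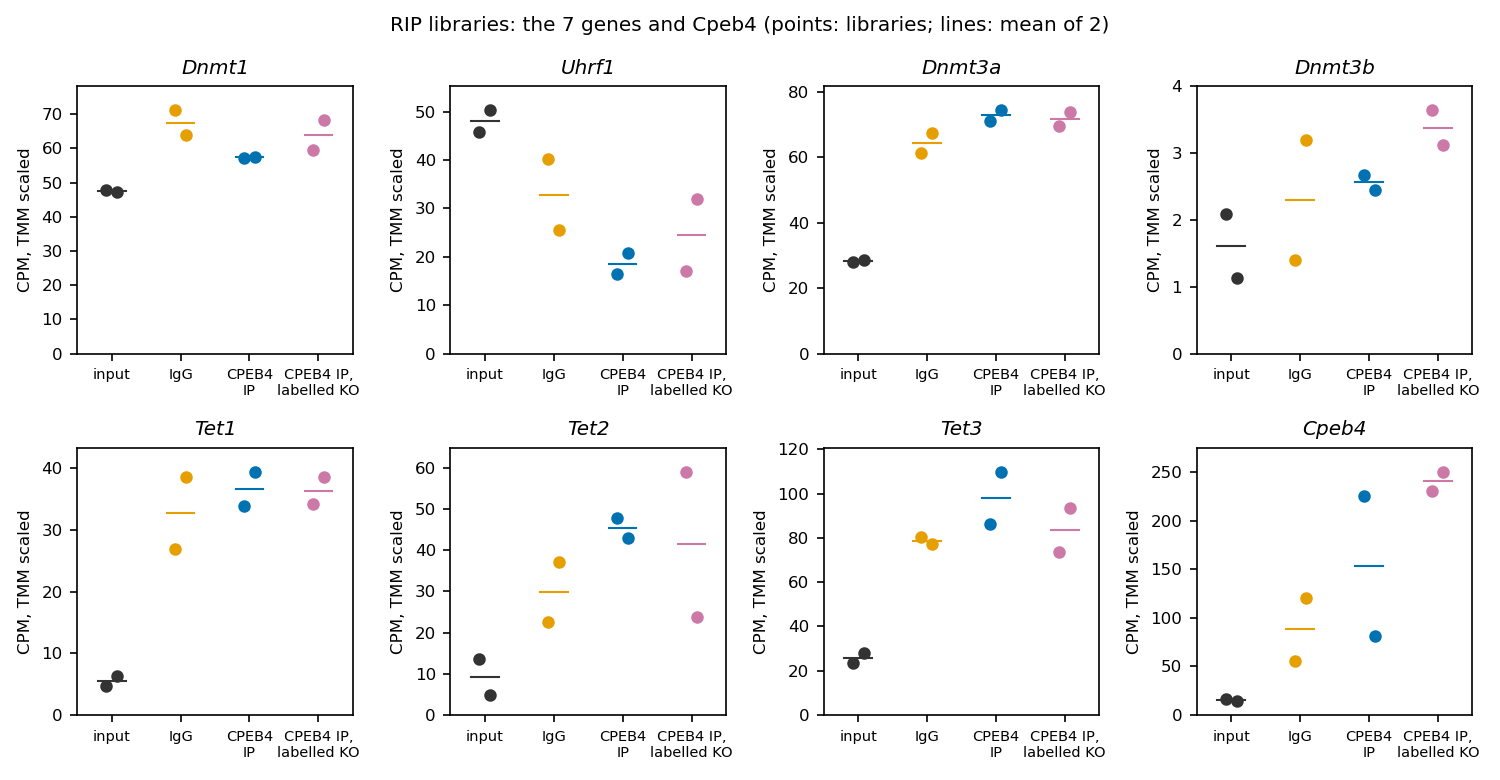
TMM-scaled CPM (y axis) of the 7 genes and Cpeb4 in the 4 RIP groups (x axis); points are single libraries and lines the mean of 2. The Tet1 inputs sit at 4.71 and 6.37 CPM below all 6 precipitates, as do the Dnmt3a inputs at 27.9 and 28.6, while Uhrf1 is highest in the inputs, at 45.8 and 50.3.

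**Figure D5:**
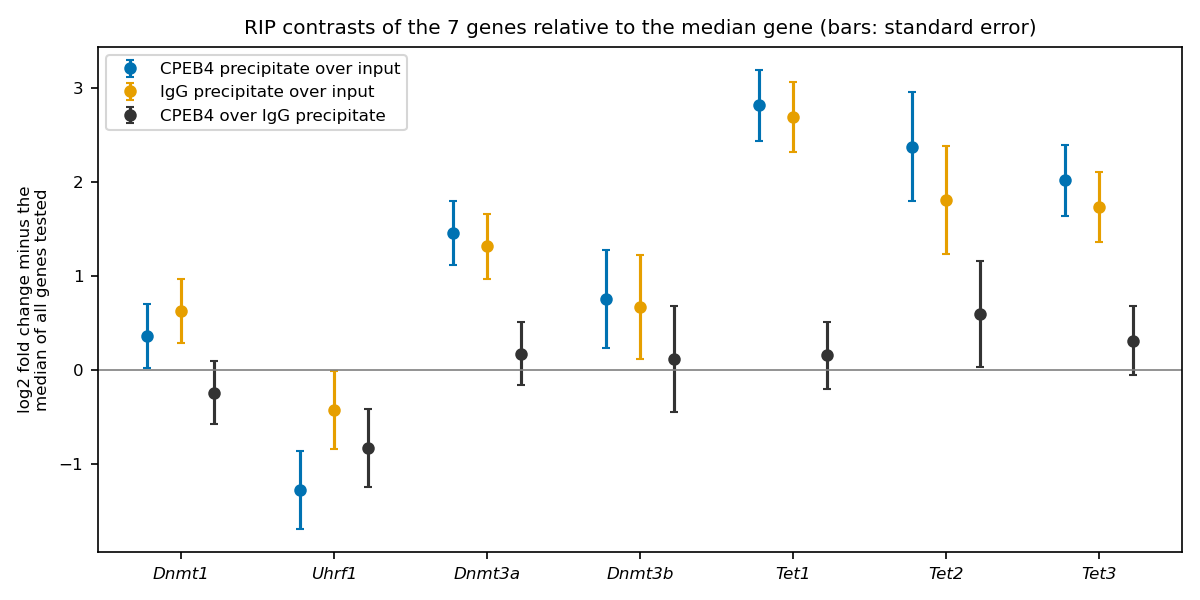
Log2 fold change minus the median of all genes tested (y axis) for the 7 genes in 3 RIP contrasts, with standard errors as bars. CPEB4 over input (blue) and IgG over input (orange) follow each other, from 2.82 and 2.70 for Tet1 to -1.28 and -0.42 for Uhrf1, and CPEB4 over IgG (black) stays between -0.82 and 0.60.

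No member was called between wildtype and knockout-labelled CPEB4 precipitates. Log2 differences ran from -0.41 (Dnmt3b) to 0.23 (Tet3), each with an edgeR adjusted p of 1, and Cpeb4 itself stood at -0.65. Tet2 gave 47.8 and 43.0 CPM in the wildtype libraries and 59.0 and 23.8 in the knockout-labelled ones, which spread on both sides. Dnmt1 and Dnmt3b were lower in wildtype libraries without overlap and no member was higher, where 5.75% of genes were lower and 7.71% higher. Over all genes edgeR made 0 calls, with 136 genes at an unadjusted p under 0.05.

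Genes of the wider pathway differed from input in both directions. Of 7 partners of de novo methylation tested, Setd2 (log2 fold change 2.18, edgeR adjusted p = 0.00168), Ehmt1, Nsd1 and Qser1 were higher with CPEB4 than in input and were higher with IgG too. Trim28 (-1.93) and Ehmt2 (-1.38) were lower with CPEB4. Among 8 readers Zbtb38 (1.45) was higher and Mbd3 (-3.24) lower with CPEB4, each called in the same direction with IgG. Of the removal genes Apex1 (-2.73) and Gadd45g (-3.01) were lower with both, and Neil3 (1.76) was higher with CPEB4. Idh1, which makes 2-oxoglutarate, was lower with both (-1.69 and -1.20), Mtr, the methionine synthase, higher with both (2.33 and 2.17) and Shmt2 lower with both (-1.83 and -1.85). Of maintenance genes Uhrf2 and Hells were higher and Dmap1 lower with CPEB4, and none of the 8 was called with IgG.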

How the data were processed

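The authors deposited whole-number counts, with no normalization: of genes in single cells, of tags on barcodes, and of genes in the RIP libraries. The build mm10 and the tools Bowtie2, SAMtools and Cell Ranger are named in the submitters' processing notes, with versions, roles and annotation not given in the sources used here. Per the labels, single-cell capture was by oligo(dT). Groups came from the labels. Members, lists and tests were chosen with earlier results of these data known.

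Counts were summed per library or cell class, with Clopper-Pearson or Poisson 95% intervals for counting error only, 3 counts as the floor for a 0, and 2-fold as the mark where no test was possible. Fresh cells were clustered with scanpy 1.11.5 (2000 variable genes without Aplp1 and the 7 genes, 30 components, 15 neighbours, resolution 1), and the rule that named clusters from the marker lists was set after the data were seen. All deposited cells were used. A cell was given to a mouse at 10 or more tag counts with 75% or more of 1 tag. RIP and mouse counts were tested with edgeR 4.0.16 (quasi-likelihood, filterByExpr, TMM, all 4 RIP groups in 1 fit, Benjamini-Hochberg adjusted p under 0.05), with DESeq2 1.42.0 as an alternative, after tests on simulated data. Named beside the 7 genes were, from each of 6 lists, the 2 largest changes each way past the mark or threshold. Other names in counts of 5 or fewer were chosen after their values were seen. No per-sample column lacked a sample. RIP replicate numbers did not pair the libraries. Some genes that the rule names are not reported here.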

Additional observations from a re-analysis of the deposited data

How the results depend on the processing

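Across the alternatives run, the counts of members called stayed at 0 in CPEB4 against IgG, in wildtype against knockout-labelled precipitates and in the fresh mice. In cycling EGF cells 2 to 3 members were 2-fold higher. Members 2-fold lower with BMP4 went from 3 to 1 in non-cycling cells only and in cycling cells only, and to 4 with cells thinned to 4500 counts, where Tet3 went from 0.614 to 0.488. In the BMP4 culture, members lower in cycling cells went from 0 to 1 with cycling set at 3 or more list counts and with scanpy phases. In fresh cells, members lower in active cells went from 2 to 1 in cells with 200 or more genes. Leaving out 1 RIP library gave 2 to 3 members higher and 0 lower for CPEB4 over input, and 1 higher for IgG over input, where Dnmt3a also lost its call without a filter. With total counts as the only scaling, chosen after seeing the data, 0 were higher in both of these comparisons and 2 lower in IgG over input. The same scaling reversed log2 fold changes of CPEB4 over IgG (Dnmt1 0.80, Uhrf1 0.23), CPEB4 over input (Dnmt1 -1.21, Dnmt3a -0.11, Dnmt3b -0.81), IgG over input (Dnmt1 -2.01, Dnmt3a -1.31, Dnmt3b -1.91, Tet2 -0.79, Tet3 -0.90) and wildtype over knockout-labelled (Dnmt1 0.14, Uhrf1 0.068). Dnmt1 over input stood at -0.0032 without a filter, and Tet1 in wildtype over knockout-labelled at -0.0011 with the 2 groups only. Leave-one-out ranges that crossed 0 were, for CPEB4 over IgG, Dnmt3b -0.32 to 0.88 and Tet1 -0.079 to 0.44. For wildtype over knockout-labelled they were Uhrf1 -0.76 to 0.13, Dnmt3a -0.0053 to 0.072, Tet1 -0.093 to 0.12 and Tet2 -0.37 to 0.96, and for IgG over input Dnmt3b -0.25 to 0.98. The cause was not tested.

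Over all genes, CPEB4 against IgG went from 0 calls to 157 higher and 377 lower with the 2 groups only and to 50 and 115 without a filter, and wildtype against knockout-labelled to 25 and 25 without a filter. Total-count scaling gave 1089 higher and 7924 lower for CPEB4 over input and 426 and 11176 for IgG over input, where no filter gave 4292 lower. Leaving out 1 library gave 2955 to 3669 higher and 2112 to 3516 lower for CPEB4 over input, and 1003 to 1746 and 193 to 719 for IgG over input. In the mice 1 gene was higher by DESeq2, without a filter and without knockout replicate 2. With the replicate block, 4 members stayed higher and 1 lower for CPEB4 over input, no member call changed, and correlations of same-numbered libraries ran from -0.37 to 0.33. With IgG numbers crossed, IgG over input gave 3842 genes higher and 3554 lower. In the mice the tag number as a block left 0 calls, and Tet2 ranged from -0.71 with a tag minimum of 3 to -1.55 without knockout replicate 1. With 20 tag counts as the minimum, no member was called, Tet2 has no fitted value and its levels overlapped between the groups of mice. Dnmt3b and, in cells with 200 or more genes, Uhrf1 have no active over quiescent ratio, since the quiescent class was at 0. Fresh counts were low for Dnmt3b (3 and 4), Dnmt1 (24 and 49), Tet3 (64 and 86) and Tet1 (85 and 85), and culture counts for Dnmt3b (14 and 72).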

Other observations

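In the fresh cells, 1 unnamed cluster held much Uhrf1 beside little Dnmt1. It held 294 cells (158 wildtype and 136 knockout-labelled) at a median of 262 counts. Uhrf1 had 89 counts in 43 of these cells, 654 CPM (interval 525 to 805), while Dnmt1 had 2 counts, 14.7 CPM (1.78 to 53.1). In the active class Uhrf1 stood at 316 CPM and Dnmt1 at 78.9. S list counts of the cluster came to 1963 CPM and G2/M list counts to 2822, against 2762 and 4152 in the active cluster. Uhrf1 was among the 10 genes that stood out most there by fold, although it was left out of clustering, and up to 11 of its counts fell in 1 cell. Tet2 gave 250 CPM in this cluster and Dnmt3a 162. Uhrf1 also had more counts than Dnmt1 in the other unnamed clusters. These were 10 and 1 in 85 cells, 8 and 0 in 82, 6 and 3 in 172, 5 and 3 in 53, and 1 and 0 in 88. More Uhrf1 than Dnmt1 was not particular to unnamed clusters. Active cells had 224 and 56 counts and neuroblast-like cells 36 and 6, while quiescent cells had 1 and 2.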
